A study of Mus musculus with 6 samples.

Results

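The genes described here are the 10 that encode the mTOR complexes and their closest regulators: Mtor, Rptor, Rictor, Mlst8, Deptor, Tsc1, Tsc2, Rheb, Rps6kb1 and Eif4ebp1. They were taken by gene name from a table of 54532 genes, each name was found once, and all 10 had enough reads to be tested. The samples were kidneys of 3 WT mice (replicates 1, 2 and 3) and 3 Trpm2-/- mice (replicates 1, 2 and 4), sequenced in bulk. Every mouse of both genotypes had received cisplatin, a platinum drug that injures kidney tubules, as a single intraperitoneal dose of 18 mg/kg, and kidneys were taken at 72 h. The labels give strain C57BL/6J and an age of 6 to 8 weeks, the methods give a slightly older range and male sex, and no untreated kidney was analysed here. WT mice came from a commercial supplier and the Trpm2-/- line from another university, with no mention of littermates, so genotype and origin cannot be told apart. All values are transcript levels, and neither protein nor phosphorylation was measured in these libraries.

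mTOR is a serine/threonine kinase that works in 2 complexes. In mTORC1 it is joined by Raptor (Rptor), which presents substrates such as S6 kinase (Rps6kb1) and the translation repressor 4E-BP1 (Eif4ebp1), and this complex promotes protein synthesis and restrains autophagy. In mTORC2 it is joined by Rictor and phosphorylates AKT, while mLST8 belongs to both complexes and DEPTOR binds and restrains both. The GTPase Rheb switches mTORC1 on at the lysosome, and the TSC1-TSC2 complex switches Rheb off until AKT phosphorylates TSC2. In kidney tubules, mTORC1 activity is known to limit autophagy after toxic injury. Since these steps act largely through protein modification and location, the amount of a transcript does not report how active the complex was.

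Between 14053307 and 17150089 reads per library were counted on genes, so that 3 counts corresponded to 0.175 to 0.213 CPM (counts relative to the scaled library size). The 10 genes had 100 to 3352 counts in a library. The Trpm2 gene, whose allele lacks only some exons, had 5, 5 and 27 counts in WT and 10, 16 and 20 in Trpm2-/- libraries, and a count over the whole gene does not check that deletion. Levels of cell type markers differed between the genotypes. Proximal tubule markers summed to 9475 to 12137 CPM in WT and 3492 to 4998 CPM in Trpm2-/- libraries with 8 of 8 lower, and the mitochondrial genome took 4.43 to 4.72% and 7.91 to 11.0% of counts. Markers were also lower for 2 of 3 tested collecting duct genes and for 1 gene each of the thick ascending limb, macrophage and urothelium lists, 1 of 4 injured tubule markers was higher (summed level 2749 to 3270 against 3821 to 4825 CPM), and none was called in the 7 other lists. Trpm2-/- replicate 4 stood apart, with a podocyte marker sum of 478 CPM against 125 to 167 CPM in all others, an endothelial sum of 142 against 33.0 to 67.7 CPM in all others, and a fibroblast and pericyte sum of 97.8 against 26.7 to 57.2 CPM in all others. The part of these differences in the results was not tested, and in bulk tissue fewer cells of a type and less RNA per cell cannot be told apart.

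Of the 10 genes, Rictor was higher in Trpm2-/- kidneys, none was lower, and 9 were not called at an adjusted p under 0.05 (quasi-likelihood test of edgeR, adjusted by Benjamini-Hochberg over 15816 genes). Over all genes tested, 12.0% were called, 4.74% as higher and 7.28% as lower. None of the 10 passed the threshold of the methods, an absolute log2 fold change above 1 with an unadjusted p under 0.05, which 7.6% of all genes passed. The median log2 fold change of the 10 was -0.02, beside 0.02 over all genes, with 4 genes above 0 and 6 below. The 3 libraries of one genotype lay apart from those of the other for 1 of the 10 genes, against 33.5% of all genes, 16.7% with Trpm2-/- above and 16.8% with Trpm2-/- below. For the 9 genes that were not called, the 95% intervals of the log2 fold change lay between -0.90 (lower end for Deptor) and 0.86 (upper end for Eif4ebp1). The range of differences that these data allow differs by gene, and for Rptor it was -0.32 to 0.27.

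**Figure D1:**
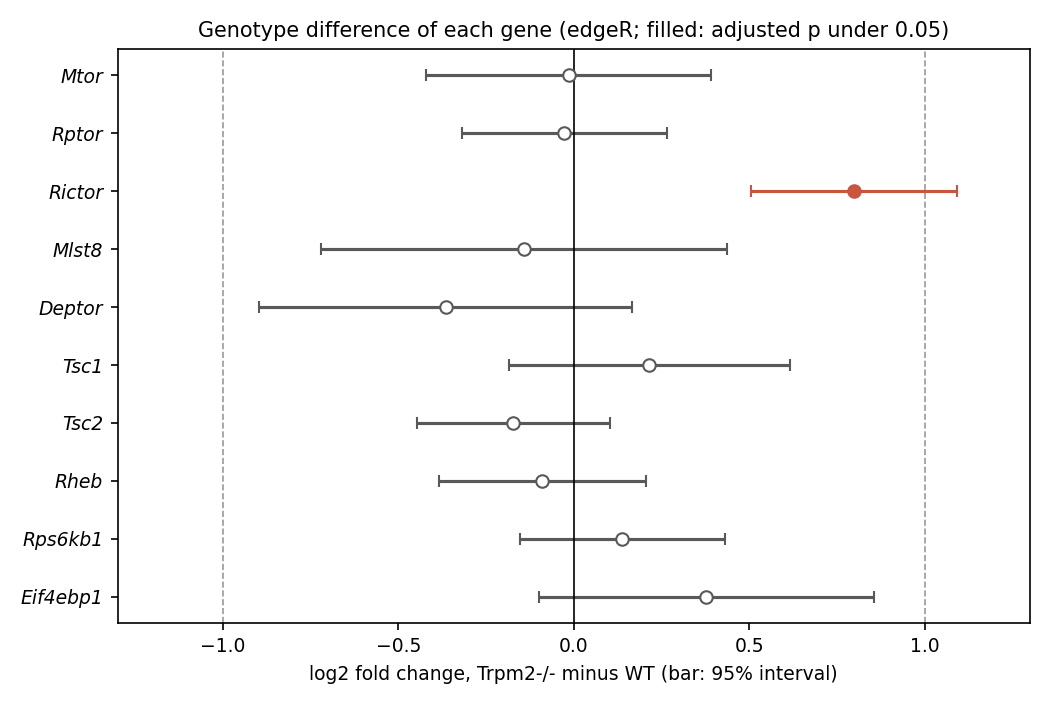
Log2 fold change (Trpm2-/- minus WT) of each gene with its 95% interval from edgeR, 3 mice per genotype; filled symbols mark an adjusted p under 0.05 and dashed lines a log2 fold change of 1 in either direction. The interval of Rictor, 0.51 to 1.09, is the only one that does not include 0.

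Mtor (ENSMUSG00000028991, GRCm38 chr4:148448611-148557683, plus strand), which encodes the kinase itself, was at 158, 190 and 147 CPM in WT replicates 1, 2 and 3 and at 205, 153 and 133 CPM in Trpm2-/- replicates 1, 2 and 4. The highest and the lowest library were both Trpm2-/-, and the WT values fell between them. The means were 165 ± 22.1 and 164 ± 37.4 CPM (SD, n = 3 each), a ratio of 0.990 with a 95% interval of 0.747 to 1.31 (edgeR adjusted p = 0.971). The sign of this difference depended on which mouse was included, with log2 fold changes from -0.21 without Trpm2-/- replicate 1 to 0.13 without Trpm2-/- replicate 4.

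Mlst8 (ENSMUSG00000024142, chr17:24473550-24479078, minus strand), the subunit bound to the kinase domain in both complexes, was the least counted of the 10. Its level was 11.7, 10.7 and 10.1 CPM in WT and 11.4, 11.8 and 6.23 CPM in Trpm2-/- libraries. Trpm2-/- replicates 1 and 2 lay within or just above the WT range, and replicate 4 lay below every other library. The log2 fold change was -0.14 (SE 0.258, edgeR adjusted p = 0.768) and became 0.11 without Trpm2-/- replicate 4. Of the annotated exonic bases of Mlst8, 22.5% (997 bases) overlap exons of Bricd5 on the opposite strand. Since the library kit does not mark strand, reads from this stretch cannot be assigned to either gene with certainty. The length given with the counts of Mlst8 is 3366 bases, against 4435 annotated exonic bases. How much of the overlap was counted is therefore not known.

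Deptor (ENSMUSG00000022419, chr15:55112317-55259271, plus strand), the inhibitor bound to both complexes, had 45.5, 47.7 and 51.2 CPM in WT and 53.4, 25.1 and 33.6 CPM in Trpm2-/- libraries. Trpm2-/- replicates 2 and 4 were below all WT libraries, whereas replicate 1 was the highest of the 6. The means of 48.2 ± 2.88 and 37.4 ± 14.5 CPM (SD, n = 3 each) gave a log2 fold change of -0.37 (SE 0.237, edgeR adjusted p = 0.351). The call depended on 1 mouse: without Trpm2-/- replicate 1 the log2 fold change was -0.72 and the edgeR adjusted p was 0.0331, in a comparison where 7.77% of all genes were called, and without Trpm2-/- replicate 2 the log2 fold change was -0.15. The FPKM (fragments relative to gene length and a factor per library) of Deptor relative to that of Mtor in the same library was 0.327, 0.286 and 0.396 in WT and 0.296, 0.187 and 0.288 in Trpm2-/- kidneys, and the genotypes overlapped (exact two-sided permutation test p = 0.3, adjusted 0.533 over 4 ratios). Exons of Gm9920 on the opposite strand cover 3.41% of those of Deptor.

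Of the scaffolds that define the complexes, Rictor was called and Rptor was not. Rictor (ENSMUSG00000050310, chr15:6708379-6800401, plus strand), the scaffold of mTORC2, was at 28.2, 25.8 and 26.8 CPM in WT and 48.8, 41.6 and 50.2 CPM in Trpm2-/- kidneys, from 402 to 457 and 609 to 806 counts. Every Trpm2-/- library was above every WT library, including replicate 4 that stood apart by its markers. The means were 26.9 ± 1.18 and 46.9 ± 4.63 CPM (SD, n = 3 each), 1.74 times higher with a 95% interval of 1.42 to 2.13 (log2 fold change 0.80, SE 0.131, edgeR adjusted p = 0.00578). Rptor (ENSMUSG00000025583, chr11:119602905-119899576, plus strand), the scaffold of mTORC1, was at 35.2, 30.4 and 30.2 CPM in WT and 32.4, 32.2 and 29.5 CPM in Trpm2-/- kidneys. The Rptor values overlapped, with means of 31.9 ± 2.79 and 31.4 ± 1.59 CPM (SD, n = 3 each) and a ratio of 0.982 (95% interval 0.802 to 1.20, edgeR adjusted p = 0.922).

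The Rictor difference was smaller after a correction for gene length. Rictor has 16930 annotated exonic bases, the longest of the 10 genes, and the 1274 tested genes over 10000 bases had a median log2 fold change of 0.30, with 15.0% called higher and 1.96% lower. Among the 203 tested genes at least as long as Rictor the median was 0.39, and 22.2% were called higher. For the 14542 genes of up to 10000 bases the median was -0.01, with 3.84% called higher and 7.75% lower. After a correction that takes out this trend with length, chosen after seeing the data, Rictor had a log2 fold change of 0.45 and was called (edgeR adjusted p = 0.0329), beside 3.88% of all genes called higher and 6.65% lower. Of the 203 genes at least as long as Rictor, 6.40% were called higher after this correction. With the same correction Rptor, at 13471 bases the gene next in length, had a log2 fold change of -0.31 (edgeR adjusted p = 0.161). The corrected log2 fold changes of Mtor, Deptor, Mlst8, Rheb and Eif4ebp1 were -0.23, -0.56, -0.09, -0.23 and 0.53, and none of these was called. Rictor was called as higher in each of 12 other settings and with each of the 6 mice left out, with log2 fold changes from 0.45 to 0.88. The highest adjusted p among the fits without 1 mouse was 0.0399, without WT replicate 2, and without Trpm2-/- replicate 4 it was 0.0151 with a log2 fold change of 0.76 (edgeR). These fits called 9.23, 4.24 and 3.86% of all genes without WT replicates 1, 2 and 3, and 7.77, 12.6 and 11.2% without Trpm2-/- replicates 1, 2 and 4.

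The ratio of Rptor to Rictor compares both scaffolds within a library and so does not depend on library scaling. It was 1.57, 1.48 and 1.42 in WT and 0.833, 0.972 and 0.739 in Trpm2-/- kidneys, on the FPKM scale. Rptor was the more abundant transcript per length in every WT library and Rictor in every Trpm2-/- library. The ratio was 1.76 times higher in WT, with no overlap between genotypes. The exact two-sided permutation test gave p = 0.1, the smallest that 3 mice against 3 allow, and 0.4 after adjustment over 4 ratios. Both genes are long, but they differ in length, and the length trend above was not removed from the ratio.

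**Figure D2:**
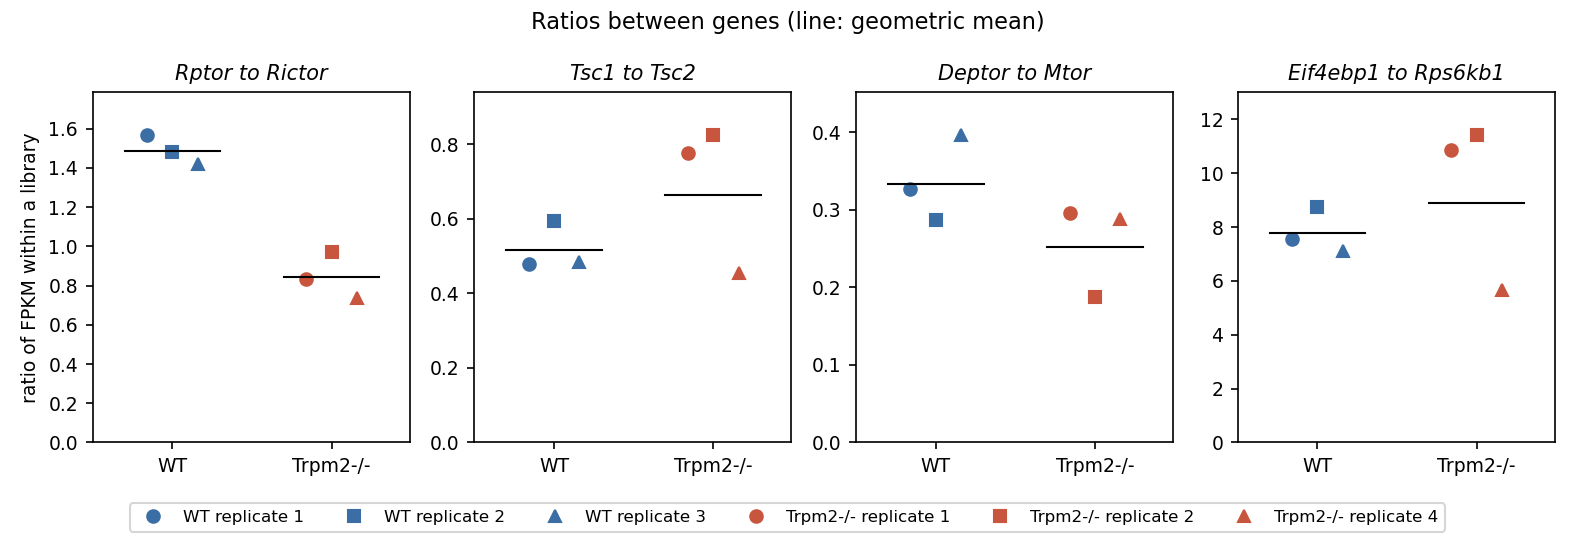
Ratio of the FPKM of 2 genes within each library, for 4 pairs of genes, with 3 WT and 3 Trpm2-/- mice as points and the geometric mean of each genotype as a line. The ratio of Rptor to Rictor lies at 1.42 or above in WT and at 0.972 or below in Trpm2-/- libraries, and the other 3 ratios overlap between genotypes.

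The sequence just before the start of each scaffold gene is shown because Rictor was the only one of the 10 genes called and Rptor is its counterpart. These are the 250 bases upstream of the RefSeq start in GRCm38.p6, on the plus strand at chr15:6708131-6708380 for Rictor and chr11:119602655-119602904 for Rptor, 5′ to 3′, with motif matches in capitals. Of the 10 genes, 8 had an entry in this promoter table.
Rictor: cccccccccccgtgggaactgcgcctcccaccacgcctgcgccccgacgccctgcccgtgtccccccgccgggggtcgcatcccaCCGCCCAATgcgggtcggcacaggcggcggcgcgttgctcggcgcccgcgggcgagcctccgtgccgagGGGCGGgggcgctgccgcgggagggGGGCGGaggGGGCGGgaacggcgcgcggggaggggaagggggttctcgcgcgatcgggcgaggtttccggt
Rptor: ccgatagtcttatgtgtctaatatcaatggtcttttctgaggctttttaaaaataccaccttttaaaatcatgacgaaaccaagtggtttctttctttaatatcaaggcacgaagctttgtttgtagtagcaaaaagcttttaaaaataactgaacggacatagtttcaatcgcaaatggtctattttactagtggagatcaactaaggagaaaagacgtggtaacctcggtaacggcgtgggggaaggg

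The Rictor window is 81.2% G and C and the Rptor window 37.6%, around a median of 52.4% over 32851 mouse windows of this length. The Rictor window holds 4 GC boxes (GGGCGG, searched on both strands), the letters recognised by Sp/KLF factors, with first bases at -165, -96, -71 and -62 from the start. The box at -165 lies on the opposite strand and overlaps the only CCAAT box (CCAAT), at -161. The other motifs searched on both strands were a TATA box (TATAAA), an E-box (CACGTG), a cAMP response element (TGACGTCA), an ATF4 amino acid response element (TGATGCAA), a forkhead site (GTAAACA) and an ETS site (CCGGAAG). None of the 8 motifs was found in the Rptor window. GC boxes occur in 32.7% and CCAAT boxes in 33.8% of all windows, shares that are not matched to the G and C content of the Rictor window. Mtor has 2 and 4 of them, while Mlst8, Tsc1, Tsc2 and Rps6kb1 have no GC box, like Rptor. A match describes letters and not binding.

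Among the regulators of Rheb, Tsc1 (ENSMUSG00000026812, chr2:28641228-28691167, plus strand), the subunit that stabilises the complex, was at 43.2, 49.1 and 44.3 CPM in WT and 59.9, 60.2 and 38.5 CPM in Trpm2-/- kidneys. Trpm2-/- replicates 1 and 2 were above all WT libraries and replicate 4 was below them. The log2 fold change was 0.22 (SE 0.179, edgeR adjusted p = 0.474), 0.41 without Trpm2-/- replicate 4 (adjusted p = 0.0847), and -0.03 with the gene-length correction.

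Tsc2 (ENSMUSG00000002496, chr17:24595816-24632630, minus strand), the subunit that acts on Rheb and the one that AKT phosphorylates, was at 73.6, 67.1 and 74.6 CPM in WT and 62.9, 59.3 and 68.9 CPM in Trpm2-/- kidneys. Only Trpm2-/- replicate 4 reached into the WT range. The means were 71.8 ± 4.09 and 63.7 ± 4.82 CPM (SD, n = 3 each), a ratio of 0.887 with a 95% interval of 0.733 to 1.07 (edgeR adjusted p = 0.398). With the gene-length correction the log2 fold change of Tsc2 was -0.36 (edgeR adjusted p = 0.0744). The end of Tsc2 meets Pkd1 on the opposite strand, with 693 shared exonic bases (7.20% of Tsc2), where reads cannot be told apart by strand. The ratio of Tsc1 to Tsc2 was 0.477, 0.595 and 0.483 in WT and 0.775, 0.824 and 0.455 in Trpm2-/- kidneys, so that replicate 4 was the lowest of the 6 and the other Trpm2-/- libraries were the highest (exact two-sided permutation test p = 0.4, adjusted 0.533).

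Rheb (ENSMUSG00000028945, chr5:24802823-24842624, minus strand), the GTPase that activates mTORC1, was at 103, 126 and 114 CPM in WT and 108, 98.4 and 115 CPM in Trpm2-/- kidneys. The values were interleaved. Their means of 114 ± 11.3 and 107 ± 8.42 CPM (SD, n = 3 each) gave a ratio of 0.940 with a 95% interval of 0.766 to 1.15 (edgeR adjusted p = 0.707).

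Of the substrates of mTORC1, Rps6kb1 (ENSMUSG00000020516, chr11:86498871-86544805, minus strand), which encodes S6 kinase, was at 35.6, 35.5 and 39.1 CPM in WT and 36.1, 41.6 and 43.7 CPM in Trpm2-/- kidneys. Trpm2-/- replicate 1 lay within the WT range and the other Trpm2-/- libraries above it. The ratio of means from the fit was 1.10 with a 95% interval of 0.899 to 1.35 (edgeR adjusted p = 0.533), and its direction turned with the gene-length correction (log2 fold change -0.03). Exons of Rnft1 on the opposite strand cover 1.79% of those of Rps6kb1.

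Eif4ebp1 (ENSMUSG00000031490, chr8:27260329-27276674, plus strand), which encodes the repressor of cap-dependent translation that mTORC1 inactivates, was at 68.2, 78.7 and 70.5 CPM in WT. In Trpm2-/- kidneys it was at 99.5, 120.4 and 62.6 CPM. Replicates 1 and 2 were thus above every WT library and replicate 4 below every WT library. The log2 fold change was 0.38 (SE 0.213, edgeR adjusted p = 0.282). Without Trpm2-/- replicate 4 it was 0.61 and Eif4ebp1 was called (edgeR adjusted p = 0.0303), in a comparison with 11.2% of all genes called, and without Trpm2-/- replicate 2 it was 0.16. The ratio of Eif4ebp1 to Rps6kb1 was 7.56, 8.73 and 7.10 in WT and 10.9, 11.4 and 5.65 in Trpm2-/- kidneys (exact two-sided permutation test p = 0.7, adjusted 0.7).

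Levels were compared between genes on the FPKM scale, which divides by gene length. Over the 6 libraries, Eif4ebp1 had the highest mean at 33.3 FPKM, followed by Mtor at 14.3, Rheb at 12.6, Tsc2 at 6.18, Deptor at 4.23, Rps6kb1 at 3.92, Tsc1 at 3.65, Mlst8 at 2.69, Rptor at 2.06 and Rictor at 1.92 FPKM. The transcript of the kinase was thus several times as abundant per length as that of either scaffold. Of the 9 pairs of neighbours in this order, 4 were apart in the same direction in all 6 libraries: Eif4ebp1 above Mtor, Rheb above Tsc2, Tsc2 above Deptor, and Tsc1 above Mlst8. Mtor was above Rheb in 4 of 6 libraries, Deptor above Rps6kb1 in 4, Rps6kb1 above Tsc1 in 3 and Mlst8 above Rptor in 5. These neighbours were not ordered beyond their spread. Rptor was above Rictor in the 3 WT libraries and below it in the 3 Trpm2-/- libraries, so their order followed genotype. Rictor was at 1.39 ± 0.0631 FPKM in WT, the lowest of the 10 genes, and at 2.44 ± 0.255 FPKM in Trpm2-/- kidneys, where Rptor was at 2.05 ± 0.0926 and Mlst8 at 2.57 ± 0.805 FPKM (SD, n = 3 each).

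**Figure D3:**
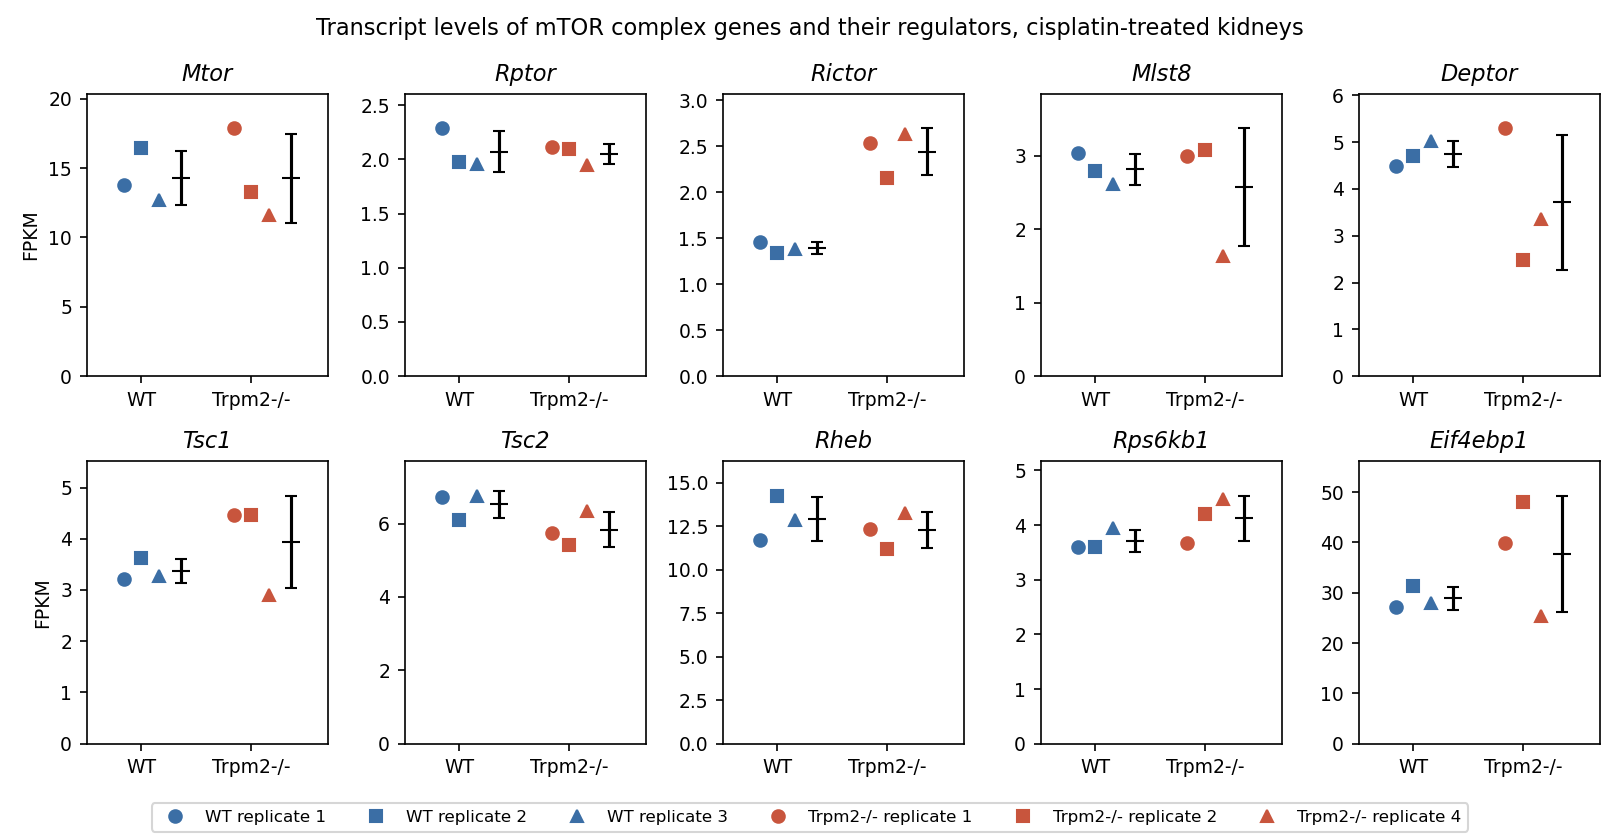
FPKM of the 10 genes in each library, with the mean and SD of 3 mice per genotype beside the points; each vertical axis starts at 0 and has its own scale. Rictor is the gene whose genotypes do not overlap, and Trpm2-/- replicate 4 (triangle) is the lowest of the 6 libraries for Mtor, Rptor, Mlst8, Tsc1 and Eif4ebp1.

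The Trpm2-/- mice varied more among themselves than the WT mice for most of these genes. The SD of log2 CPM was wider in Trpm2-/- than in WT libraries for 8 of 10 genes, as it was for 68.8% of all genes with counts in every library, with a median ratio of 2.06 beside 1.50 over all genes. The ratio was 6.39 for Deptor, 5.09 for Mlst8, 4.48 for Eif4ebp1 and 3.79 for Tsc1, whereas it was 0.604 for Rptor and 0.801 for Rheb. Within the Trpm2-/- group, replicate 4 was the lowest for 5 genes (Mtor, Rptor, Mlst8, Tsc1 and Eif4ebp1) and the highest for 4 (Rictor, Tsc2, Rheb and Rps6kb1).

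Across the 6 libraries, Eif4ebp1 and Tsc1 had the most alike patterns of log2 CPM by Pearson's r (r = 0.963, Spearman's rho = 1), and Eif4ebp1 and Tsc2 had the lowest r (r = -0.890, rho = -0.771). These are descriptions over 6 libraries in which genotype and marker levels differ together. The highest and the lowest Eif4ebp1 level were those of Trpm2-/- replicates 2 and 4. Among 9869 genes with a mean of at least 10 CPM, 29 reached an r of 0.95 with Mtor over these 6 libraries. With predicted genes of Gm or Rik names left out, those most like Mtor were Ppp3r1 (r = 0.993), Narf (r = 0.979) and Plac8 (r = 0.977).

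**Figure D4:**
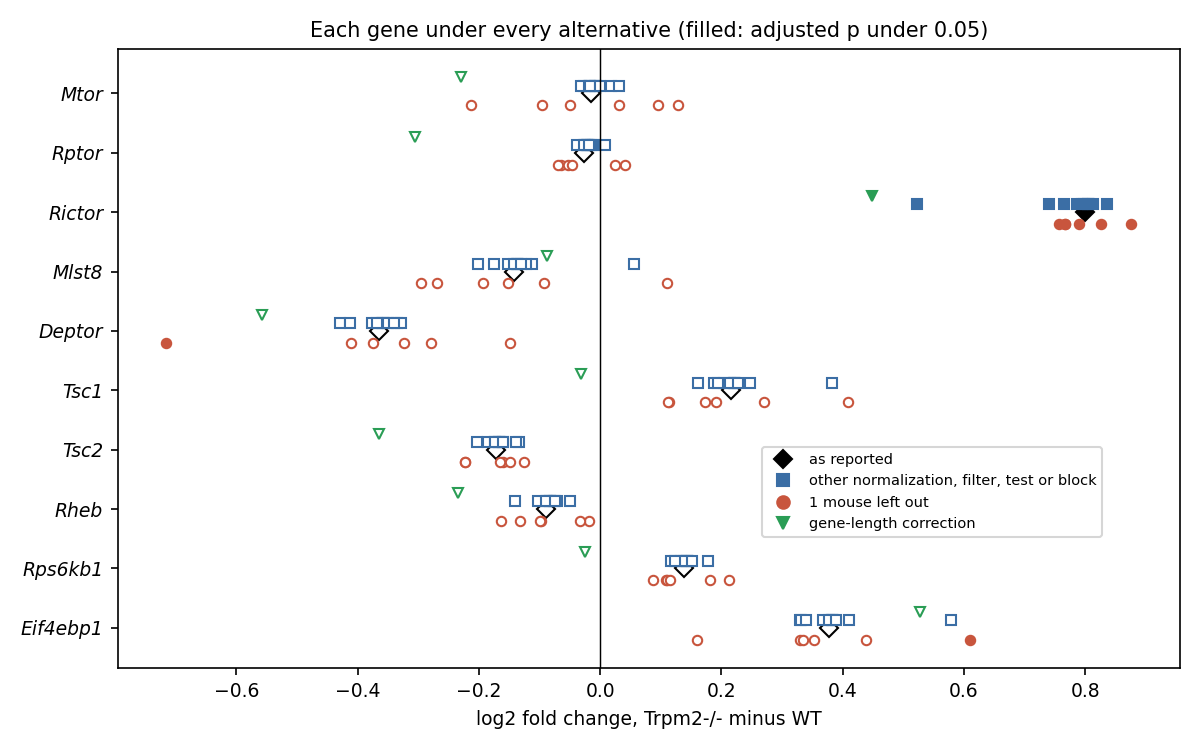
Log2 fold change (Trpm2-/- minus WT) of each gene as reported, under other settings, with 1 mouse left out and with the gene-length correction; filled symbols mark an adjusted p under 0.05. Rictor is filled under every setting, at 0.45 to 0.88, and the other filled symbols are Deptor without Trpm2-/- replicate 1 and Eif4ebp1 without Trpm2-/- replicate 4.

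The wider pathway was described through 6 lists with 123 genes, of which 122 were tested, 2 were higher and 11 lower in Trpm2-/- kidneys. Their median log2 fold change was 0.01, beside 0.02 over all genes. The 13 calls stand against 12.0% called over all genes, 4.74% as higher and 7.28% as lower. None of the 10 other partners of the complexes was called (median -0.06). The partners with the smallest p were Tti1, a chaperone of mTOR-family kinases, at 19.4 ± 2.32 and 25.8 ± 1.71 CPM (log2 fold change 0.41, edgeR adjusted p = 0.106), and Prr5l, an mTORC2 partner, at 6.23 ± 1.78 and 10.4 ± 4.64 CPM (log2 fold change 0.74, edgeR adjusted p = 0.186; SD, n = 3 each). The Prr5l value rested on Trpm2-/- replicate 1, at 15.7 CPM, and was 0.30 without that mouse, since the other Trpm2-/- libraries lay within the WT range.

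In the list for amino acid sensing at the lysosome, 3 of 29 genes were lower (7.28% over all genes), none was higher, and the median was 0.02. Lamtor5, a subunit of the Ragulator scaffold that holds the Rag GTPases on the lysosome, was at 119, 151 and 153 CPM in WT and 63.3, 77.4 and 83.1 CPM in Trpm2-/- kidneys (log2 fold change -0.92, edgeR adjusted p = 0.00671). Lamtor4, of the same scaffold, had a log2 fold change of -0.72 (edgeR adjusted p = 0.0421), and Castor1, an arginine sensor that restrains mTORC1, one of -0.81 (edgeR adjusted p = 0.0210). For all 3, every Trpm2-/- library lay below every WT library, as for 16.8% of all genes and for some genes of this list that were not called. The call of Lamtor5 held in each of 18 alternatives, with log2 fold changes from -1.04 to -0.71. Lamtor4 lost its call in 8 and Castor1 in 4 of them.

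Among growth factor and energy inputs, 2 of 28 genes were higher (4.74% over all genes) and none was lower, with a median of 0.13. These were Prkab2, a regulatory subunit of the energy sensor AMPK, at 14.4 ± 1.01 and 21.8 ± 2.63 CPM (log2 fold change 0.60, edgeR adjusted p = 0.0421), and the kinase Gsk3b, at 53.7 ± 5.54 and 80.6 ± 16.2 CPM (log2 fold change 0.58, edgeR adjusted p = 0.0497). Prkab2 lost its call in 9 and Gsk3b in 12 of 18 alternatives. The kinases Akt1 and Akt2 were not called. Akt1 was at 123 ± 11.1 and 158 ± 15.7 CPM (SD, n = 3 each), a log2 fold change of 0.36 (edgeR adjusted p = 0.111), and Akt2 at 109 ± 7.24 and 88.3 ± 14.1 CPM (SD, n = 3 each), a log2 fold change of -0.31 (edgeR adjusted p = 0.203).

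Of 24 direct substrates and translation effectors, 2 were lower (7.28% over all genes) and none was higher, with a median of -0.16. Ndrg1, a target of the SGK kinases downstream of mTORC2, was at 1600, 1920 and 1910 CPM in WT and 1227, 824 and 747 CPM in Trpm2-/- kidneys (log2 fold change -0.96, edgeR adjusted p = 0.0195). Sgk2, one of these kinases, was at 140 ± 12.9 and 87.7 ± 6.13 CPM (SD, n = 3 each), a log2 fold change of -0.68 (edgeR adjusted p = 0.0105). Ndrg1 lost its call in 4 and Sgk2 in 2 of 18 alternatives, both of them without WT replicate 2 and without WT replicate 3.

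The last 2 lists held transcripts placed downstream of mTORC1, and whether each of them follows it in kidney was not tested. Of 16 placed downstream through the transcription factor ATF4, 1 was lower (7.28% over all genes) and none was higher, with a median of 0.11. This was Shmt2, a mitochondrial enzyme of serine and glycine metabolism, at 184, 210 and 223 CPM in WT and 82.4, 75.6 and 86.8 CPM in Trpm2-/- kidneys (log2 fold change -1.33, edgeR adjusted p = 0.00126), and its call held in each of 18 alternatives. Of 16 placed downstream of mTORC1 through SREBP, the regulator of sterol and fatty acid synthesis, 15 were tested. Of these 15, 5 were lower (7.28% over all genes) and none was higher, with a median of -0.08. Insig1, which retains SREBP in the endoplasmic reticulum and is itself an SREBP target, was at 34.7 ± 3.49 and 18.3 ± 2.79 CPM (SD, n = 3 each; log2 fold change -0.92, edgeR adjusted p = 0.00746) and kept its call in each of 18 alternatives. The sterol enzymes Hmgcs1, Cyp51 and Sqle had log2 fold changes of -0.66, -0.59 and -0.57 (edgeR adjusted p = 0.0304, 0.0337 and 0.0386), and the fatty acid desaturase Scd1 one of -1.01 (edgeR adjusted p = 0.0305). These 4 lost their calls in 6 to 8 of 18 alternatives. The proximal tubule markers were lower in the same Trpm2-/- libraries, and their part in these list results was not tested.

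**Figure D5:**
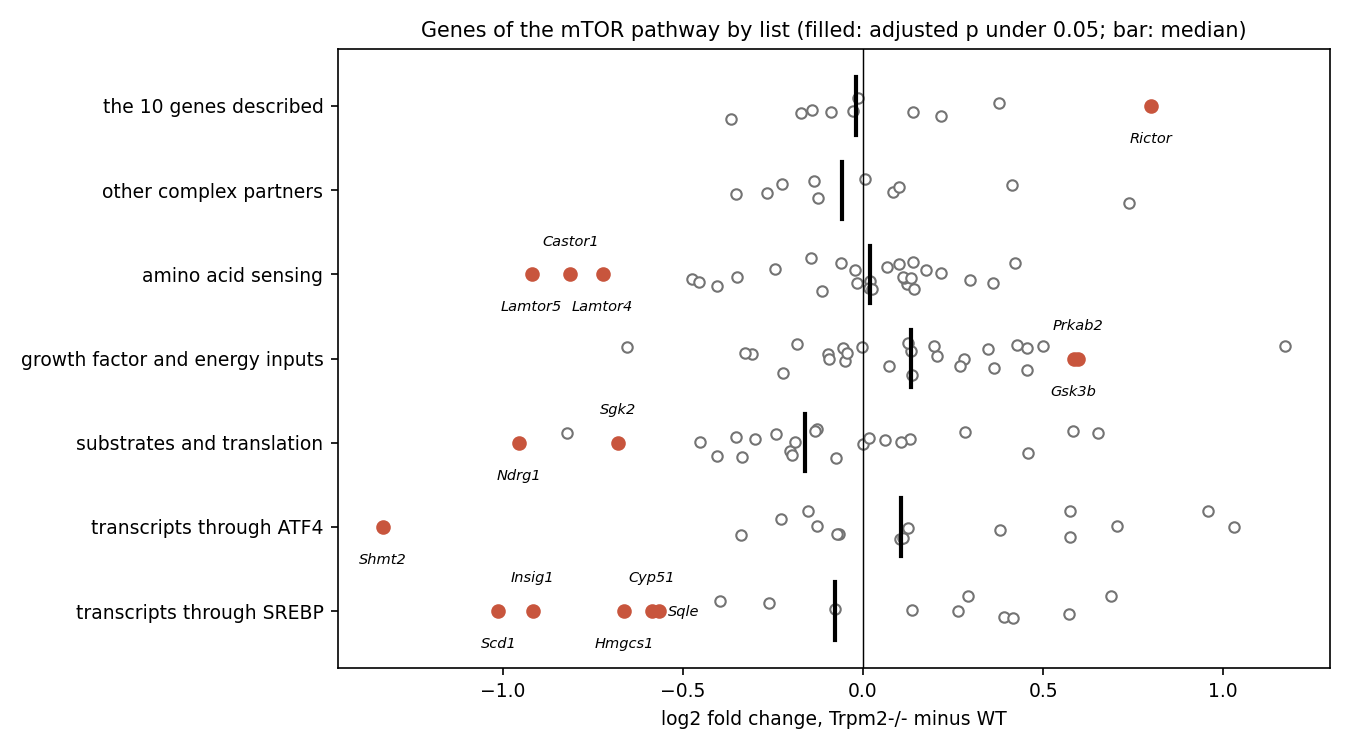
Log2 fold change (Trpm2-/- minus WT) of each tested gene of the 10 described and of the 6 wider lists, with the median of each list as a bar; filled symbols mark an adjusted p under 0.05. Open symbols, the genes that were not called, lie on both sides of 0 in every list, and the list medians lie between -0.16 and 0.13.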

How the data were processed

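Bulk kidney RNA of 6 cisplatin-treated mice (Trizol extracts, a NEBNext Ultra II kit that does not mark strand, an Illumina instrument) was analysed here. The submitters' processing notes name HISAT2, StringTie and mm9, with no role or version, but gene positions in the tables are those of GRCm38 (equal to GENCODE mouse release 21 for 9 of the 10 genes, with Mlst8 starting 1 base apart), and the tables' positions are given. The authors deposited whole-number read counts per gene without normalization, and FPKM values that the authors made from these counts. The FPKM values equal the count divided by gene length and by 1 factor per library, which in each library exceeds the sum of counts on genes.

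Counts were analysed with edgeR 4.0.16 in R 4.3.3 (filterByExpr, TMM, genotype as the only term, two-sided quasi-likelihood test, Benjamini-Hochberg adjustment over 15816 genes, common dispersion 0.0445). CPM uses TMM-scaled library sizes. FPKM ratios were compared by exact permutation tests. The floor of 3 counts covers counting error only. Replicates are different mice, and between 2 mice of a genotype the chi-square of counts per degree of freedom was 13.5 to 18.7 in WT and 32.1 to 36.7 in Trpm2-/- libraries. The fits of the genotype difference were tested on simulated counts, with no minimum recovery required of the fit with the replicate block.

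The members and lists were chosen with earlier results of these data known. Named genes were the 10 members, Trpm2, Akt1, Akt2, and up to 5 genes called per list or else the 2 with the smallest p. Also named were the 3 genes most like Mtor (predicted genes of Gm or Rik names left out) and the most and least alike pair of members. Genes that share exons with a member were named after the annotation was read. A further gene that the rule names is not reported here. The markers formed 13 lists. Of the alternatives, which included limma 3.58.1 and DESeq2 1.42.0, the gene-length correction (a lowess of span 0.3) was added after seeing the data. Promoter letters are those of RefSeq, GRCm38.p6.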

Additional observations from a re-analysis of the deposited data

How the results depend on the processing

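Rictor kept its direction and call in all 18 alternatives (12 other settings and each of 6 mice left out). The replicate number as a block gave Rictor a log2 fold change of 0.74 (edgeR adjusted p = 0.0434), and gave 0 of the wider pathway genes called higher and 4 lower, in place of 2 and 11. Numbers 1 and 2 occur in both genotypes on different mice. Deviations of same-numbered mice had r of 0.0641 and -0.0120, and those of mice with unlike numbers had r from -0.248 to 0.217. Whether same-numbered mice also shared handling was not tested. With 1 mouse left out, the number of the 10 genes called ranged from 1 to 2 higher and from 0 to 1 lower, and that of the wider pathway genes from 0 to 4 higher and from 3 to 9 lower. Wider pathway genes called higher were 1 with DESeq2 size factors, 7 with no filter on low counts, 1 without the mitochondrial genome, 0 with limma on log2(FPKM + 1) or log2(FPKM + 0.1), and 0 with the gene-length correction. Those called lower were 7 with limma on either FPKM scale.

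Signs turned for genes that were not called. Mtor was at 0.017 by upper quartile, 0.031 with the replicate block and -0.21 to 0.13 with 1 mouse left out. Rptor was at 0.0087 by upper quartile and -0.069 to 0.042 with 1 mouse left out. Mlst8 was at 0.056 with the block and -0.30 to 0.11 with 1 mouse left out. With the gene-length correction Tsc1 was at -0.031 and Rps6kb1 at -0.026. The 4 ratios were recomputed with 1 mouse left out and kept their direction each time. Their ranges on the log2 scale were -0.92 to -0.72 (Rptor to Rictor), 0.20 to 0.63 (Tsc1 to Tsc2), -0.52 to -0.19 (Deptor to Mtor) and 0.01 to 0.52 (Eif4ebp1 to Rps6kb1). The cause of these changes was not tested. With 100 counts at the least, counting error alone was up to 10% per library.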
